A study of Mus musculus with 27 samples.

Results

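Hhip, the hedgehog-interacting protein gene, and 8 other core genes of the hedgehog pathway (Ptch1, Gas1, Boc, Cdon, Smo, Gli1, Gli2 and Gli3) were followed through liver injury in mouse hepatic stellate cells (HSCs), the retinoid-storing pericytes of the liver that become matrix-producing myofibroblasts after damage. These 9 of the 53379 genes in the count table were chosen by the measured Hhip level, which was far lower in the chronic 24 h than in the acute 24 h libraries, so all values of that contrast are given below as a description and were not tested. Coordinates are those of GENCODE M21 on GRCm38. All 9 passed the filter on low counts that left 18758 genes for testing.

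The cells came from male Balb/c mice, for which the labels name no mutation or transgene. They were freed by perfusion of the liver, sorted for the ultraviolet autofluorescence of their retinoids and lysed at once, without culture. Acute injury was 1 intraperitoneal injection of carbon tetrachloride (CCl4), a hepatotoxin given in mineral oil at 0.5 µL per g body weight, to mice of 10 to 12 weeks, with cells taken 24 h (n = 3), 72 h (n = 4) or 7 d (n = 4) later. Chronic injury was 8 such injections over 4 weeks to mice of 8 to 10 weeks, with collection at 24 h, 72 h or 14 d counted from the final dose (n = 4 each). If 8 to 10 weeks was the age at the first injection, these mice were older at collection by at least the length of the course. An age difference from healthy mice cannot be told apart from chronic injury. Healthy mice (n = 4, 10 to 12 weeks) received no injection, so the effects of the oil and the needle were shared by all 6 injured groups and cannot be told apart from those of CCl4. The study describes each replicate as a separate experiment. A sort on retinoid fluorescence keeps the cells that still hold retinoid, which is a limit on what the injured groups stand for.

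Hedgehog ligands (Sonic, Indian and Desert hedgehog) are secreted proteins that bind the membrane receptor Patched 1, with help from the co-receptors Gas1, Boc and Cdon. Ligand binding relieves the block that Patched 1 keeps on Smoothened, and Smoothened then switches the Gli transcription factors, in the primary cilium, from repressors to activators. Hhip is a membrane-anchored protein that traps the ligands, and Hhip, Ptch1 and Gli1 are themselves classic targets of the activated pathway in many tissues, where Hhip and Ptch1 act as negative feedback. In the liver the pathway is known for its activity during injury and fibrosis.

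The 27 libraries held 6314801 to 13052838 counts each. Depth fell into 2 classes, with at most 7580709 counts in 8 libraries and at least 10792560 in the other 19. The lower class was made up of all 4 chronic 14 d libraries and of the libraries numbered 1 and 2 at both earlier chronic time points, so depth and time point cannot be told apart for chronic 14 d against healthy. All 12 listed stellate cell markers were found in each group, with a summed level of 15059 to 48503 CPM per library (CPM, the usual scaling of the counts of a gene to a common library total, with TMM-adjusted library sizes). That sum itself was lower after injury, with a mean of 40976 CPM in healthy, 28858 at acute 24 h, 17391 at acute 72 h, 20712 at acute 7 d, 16923 at chronic 24 h, 22623 at chronic 72 h and 27267 at chronic 14 d, and its part in the falls described below was not tested. Markers of other liver cells were present and differed between groups. The summed level of 12 hepatocyte markers was lowest at acute 24 h (102 to 378 CPM) and reached 11649 CPM in a chronic 14 d library, 12 macrophage markers went from 183 to 723 CPM in healthy to 4212 to 10995 CPM at acute 7 d, and 12 sinusoidal endothelial markers ranged from 76.4 to 820 CPM over all libraries. Of the macrophage markers, Lyz2 had the highest single-library level (8584 CPM), and the next highest was that of Clec4f (787 CPM). The 10 cholangiocyte markers summed to 56.9 to 108 CPM in healthy and 767 to 4801 CPM at acute 7 d, where Krt19 had a mean of 2.81 CPM. The highest single-library level in that list was that of Spp1 (4775 CPM). In bulk RNA of this kind, fewer cells of a type and less RNA per cell cannot be told apart.

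The proximal promoters of Hhip and Ptch1, the feedback inhibitors among the 9 genes, are shown because they are textbook targets of Gli factors, whose best known binding site reads GACCACCCA. Both are RefSeq windows of 300 bases, 250 before and 50 after the annotated start, on the minus strand of GRCm38.p6: chr8:80057959-80058258 for Hhip and chr13:63565686-63565985 for Ptch1, which uses a start inside the longer gene body. Capitals mark CCACCC, the 6-base core that lies within the site.
Hhip: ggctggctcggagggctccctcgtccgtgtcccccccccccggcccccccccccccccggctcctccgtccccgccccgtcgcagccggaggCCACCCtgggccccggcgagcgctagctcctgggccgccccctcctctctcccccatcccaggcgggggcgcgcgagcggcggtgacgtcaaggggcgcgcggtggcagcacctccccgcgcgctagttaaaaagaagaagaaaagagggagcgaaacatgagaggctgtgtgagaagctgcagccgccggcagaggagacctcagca
Ptch1: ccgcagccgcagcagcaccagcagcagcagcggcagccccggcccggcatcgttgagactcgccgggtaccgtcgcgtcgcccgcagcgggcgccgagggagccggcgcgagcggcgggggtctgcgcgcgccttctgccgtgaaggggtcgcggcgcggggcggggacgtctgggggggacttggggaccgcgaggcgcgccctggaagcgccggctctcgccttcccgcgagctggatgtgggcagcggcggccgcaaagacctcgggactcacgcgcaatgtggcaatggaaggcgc
A promoter sequence was matched for 7 of the 9 genes, all except Gli1 and Boc. The exact site, searched on both strands, was in 0 of these 7 windows and in 83 of 32851 mouse promoters (0.253%). The core was present once in the Hhip window and absent from that of Ptch1. It was found in 4 of the 7 windows (Hhip, Smo, Gli2 and Gli3), against 31.5% of all promoters. The Hhip window was rich in G and C (73.7%, with 30 CpG sites), as was that of Ptch1 (76.3%, with 47 CpG sites), against medians of 52.7% and 7 sites over all promoters.

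Hhip (ENSMUSG00000064325, chr8:79965851-80058006, minus strand) transcripts were abundant in healthy HSCs, higher still 24 h after the only injection of the acute groups, and low in all later acute groups and in all chronic ones. Levels in the healthy libraries (replicates 1 to 4) were 128, 118, 152 and 108 CPM (126 ± 18.8, SD, n = 4). The acute 24 h libraries read 334, 309 and 322 CPM (322 ± 12.6, n = 3), all above every healthy library. At acute 72 h the values were 20.4, 21.3, 11.9 and 11.7 CPM (16.3 ± 5.22, n = 4), and all lay under the lowest healthy library. The acute 7 d values of 21.8, 26.7, 23.1 and 41.1 CPM (28.2 ± 8.84, n = 4) were also all below healthy. Thus the mean at acute 24 h was 2.54-fold that of healthy, given as a description, and at acute 72 h the fitted level was 7.74-fold below healthy.

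In chronically injured mice Hhip was already low at 24 h. The chronic 24 h libraries read 22.8, 7.69, 6.23 and 7.12 CPM (11.0 ± 7.91, n = 4), and replicate 1 stood apart from the other 3. At chronic 72 h the values were 20.5, 21.7, 9.73 and 3.29 CPM (13.8 ± 8.85, n = 4), and all lay below every healthy library. At chronic 14 d the libraries read 35, 29.9, 41.4 and 52.6 CPM (39.7 ± 9.80, n = 4), above every chronic 24 h and chronic 72 h library and below every healthy one. The mean of acute 24 h was 29.4-fold that of chronic 24 h, and the lowest acute 24 h library was 13.6-fold above the highest chronic 24 h library. That contrast chose the gene and is given without a test.

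**Figure D1:**
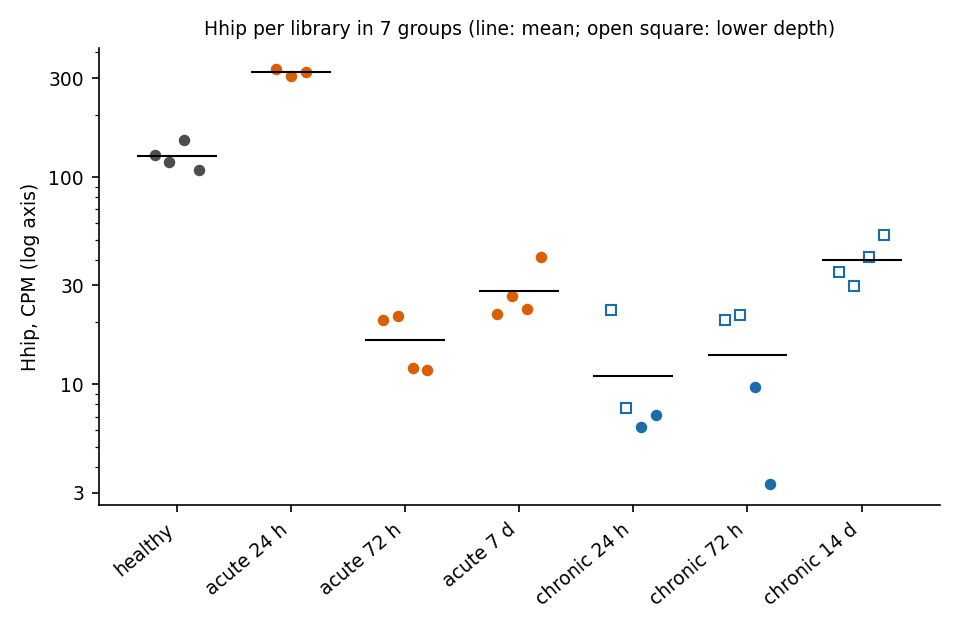
Hhip level in CPM on a log axis (vertical) for each of the 27 libraries, by group (horizontal), with circles for libraries of higher depth, open squares for libraries of lower depth and lines for group means. The 3 acute 24 h libraries (309 to 334 CPM) sit above the 4 healthy ones (108 to 152 CPM), and the other 20 libraries lie between 3.29 and 52.6 CPM.

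Ordered by mean, Hhip ran from acute 24 h through healthy, chronic 14 d, acute 7 d, acute 72 h and chronic 72 h to chronic 24 h. The ranges of neighbouring groups overlapped for chronic 14 d and acute 7 d, for acute 72 h and chronic 72 h, and for chronic 72 h and chronic 24 h, and did not overlap for the other 3 neighbours. In the comparisons without a 24 h group, tested with edgeR's quasi-likelihood method and Benjamini-Hochberg adjustment over 18758 genes, Hhip was lower than healthy in 4 of 4. Its log2 fold change was −2.95 (SE 0.445, adjusted p = 4.7e-05 by edgeR) at acute 72 h and −2.16 (SE 0.430, adjusted p = 0.000757) at acute 7 d. It was −3.21 (SE 0.452, adjusted p = 2.21e-05 by edgeR) at chronic 72 h and −1.67 (SE 0.424, adjusted p = 0.0146) at chronic 14 d. The chronic 14 d call was lost without chronic 14 d replicate 2 (log2 fold change −1.52, adjusted p = 0.0675 by edgeR). These comparisons share the healthy libraries and are not independent of each other.

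Recovery of Hhip between time points did not pass the test. The log2 fold change was 0.79 (95% interval −0.03 to 1.61, adjusted p = 0.228 by edgeR) from acute 72 h to acute 7 d and 1.54 (0.70 to 2.38, adjusted p = 0.0722) from chronic 72 h to chronic 14 d. DESeq2 gave 1.56 with an adjusted p of 0.0140 for the latter, which is past the threshold, while the lower-depth libraries alone gave 0.93 (adjusted p = 0.545 by edgeR). The interval of chronic 72 h against acute 72 h (log2 fold change −0.26, −1.09 to 0.57, adjusted p = 0.747 by edgeR) spans a difference of 2-fold downwards.

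Inside chronic 24 h and chronic 72 h, Hhip was higher in the libraries of lower depth, with 2 libraries on each side. At chronic 24 h its mean was 15.2 CPM in the 2 lower-depth libraries and 6.67 CPM in the 2 higher-depth ones, and at chronic 72 h it was 21.1 and 6.51 CPM, with no overlap in either group. The gap at chronic 24 h rests on replicate 1 (22.8 CPM), as the other lower-depth library read 7.69 CPM against 6.23 and 7.12 CPM in the higher-depth ones. With depth class as a term the log2 fold change against healthy became −4.14 at chronic 72 h and −3.11 at chronic 14 d. The chronic 14 d value carries over the depth difference fitted within chronic 24 h and chronic 72 h. Chronic 14 d has no library of higher depth and healthy none of lower depth, so that value cannot separate depth from time point. The higher-depth libraries alone gave −4.24 at chronic 72 h. For chronic 72 h against acute 72 h, the depth term gave −1.19 (adjusted p = 0.0416 by edgeR), which is past the threshold, and the higher-depth libraries alone gave −1.29 (adjusted p = 0.0519). Depth classes also lay apart for Gas1 at chronic 72 h (438 and 509 CPM at lower depth, 646 and 684 CPM at higher depth). The same held for Cdon, Gli3 and Smo at chronic 24 h, and of these 3 and Gas1 only Smo was higher at lower depth. With 2 libraries on each side, a gap of this kind can arise by chance. The part of depth in these values was not tested further.

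A gene is said here to have risen or fallen where its edgeR adjusted p was below 0.05 and its fold above 2. Hhip was left out of the counts in comparisons with a 24 h group, which leaves 8 genes there and 9 elsewhere. Against healthy, 1 of 8 genes rose and 2 fell at acute 24 h, where 9.41% of all 18758 genes rose and 12.5% fell. At acute 72 h 1 of 9 rose and 2 fell (all genes: 8.23% and 4.33%), and at acute 7 d 2 rose and 2 fell (9.23% and 5.64%). At chronic 24 h 2 of 8 rose and 1 fell (all genes: 11.2% and 8.11%), at chronic 72 h 3 of 9 rose and 2 fell (7.88% and 4.2%), and at chronic 14 d 1 rose and 1 fell (4.55% and 1.17%). The median log2 fold change of the genes counted was −0.69 at acute 24 h, −0.05 at acute 72 h, 0.65 at acute 7 d, 0.65 at chronic 24 h, 0.78 at chronic 72 h and 0.58 at chronic 14 d. Over all genes tested the median lay between −0.12, at acute 24 h, and 0.01.

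The injured groups were also set against each other. From acute 72 h to acute 7 d 1 of 9 rose and 0 fell, against 5.08% and 2.73% of all genes. From chronic 24 h to chronic 14 d 1 of 8 rose and 1 fell (6.65% and 6.11%). From chronic 72 h to chronic 14 d 0 of 9 passed (0.261% of all genes rose and 0.64% fell), with 4 of 9 at an unadjusted p below 0.05 by edgeR and 1 called by DESeq2. At chronic 72 h against acute 72 h 2 of 9 rose and 0 fell (5.11% and 4.01%). Cdon, Smo and Gli3 were called in 0 of the 10 comparisons.

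**Figure D2:**
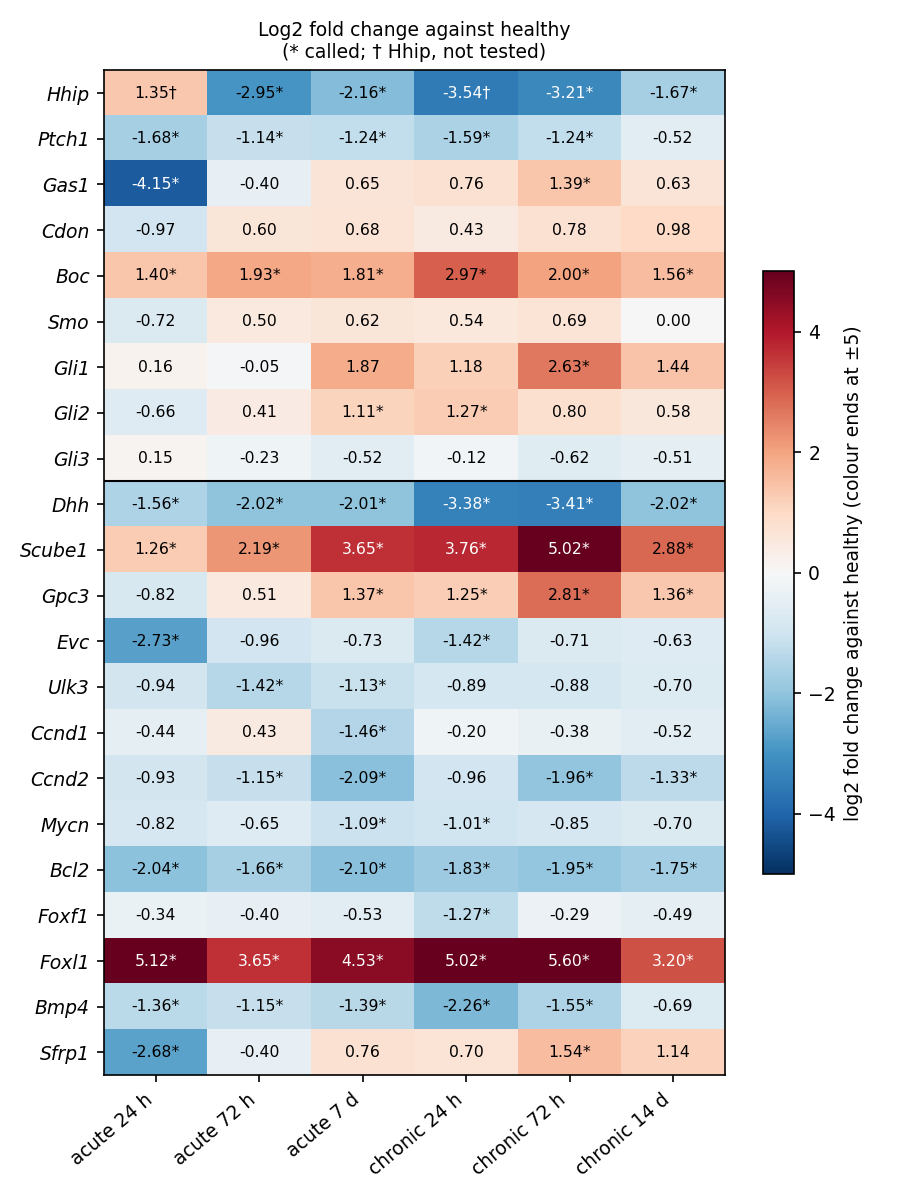
Log2 fold change against healthy (colour and printed value) of the 9 genes, above the black line, and of 13 of the other pathway genes called at least in 1 comparison, for each injured group (columns). Asterisks mark calls and daggers the Hhip values that were not tested. Hhip and Ptch1 are negative in 4 of 4 and 6 of 6 of the tested columns, Boc is positive in all 6 columns, and Gas1 runs from −4.15 at acute 24 h to 1.39 at chronic 72 h.

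Ptch1 (ENSMUSG00000021466, chr13:63508328-63573598, minus strand), the receptor and the other feedback gene, fell with injury, also at acute 24 h, when Hhip was at its highest. Healthy libraries read 81.0, 79.3, 93.3 and 78.9 CPM (83.1 ± 6.84, n = 4), and acute 24 h libraries read 20.8, 21.4 and 35.8 CPM (26 ± 8.51, n = 3). Chronic 24 h libraries read 30.3, 25.1, 24.1 and 30.6 CPM (27.5 ± 3.40, n = 4). Thus the 24 h groups lay 3.2-fold and 3.02-fold below healthy, with no overlap (log2 fold change −1.68, SE 0.262, adjusted p = 3.12e-05 by edgeR, and −1.59, SE 0.237, adjusted p = 1.65e-05). Whereas Hhip differed 29.4-fold between these 2 groups, the ratio for Ptch1 was 1.06.

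Ptch1 was still low at the later time points. It read 47.9, 43.2, 31.4 and 28.0 CPM at acute 72 h (log2 fold change −1.14, adjusted p = 0.00101 by edgeR) and 36.8, 35.1, 33.2 and 35.4 CPM at acute 7 d (−1.24, adjusted p = 0.000444). At chronic 72 h it read 34.4, 29.7, 48.9 and 28.0 CPM (−1.24, adjusted p = 0.000533 by edgeR). No library of these 3 groups overlapped healthy. At chronic 14 d the values spread over 38.8, 41.2, 68.6 and 83.0 CPM (57.9 ± 21.5, n = 4), of which replicate 4 lay within the healthy range (−0.52, adjusted p = 0.172 by edgeR). Ptch1 rose from chronic 24 h to chronic 14 d (1.07, SE 0.235, adjusted p = 0.00190 by edgeR). That call fell under 2-fold without chronic 14 d replicate 4 (0.90) and was lost among the lower-depth libraries (1.13, adjusted p = 0.0787 by edgeR).

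Gas1 (ENSMUSG00000052957, chr13:60174405-60177365, minus strand), a lipid-anchored co-receptor that binds the ligand together with Ptch1, showed the deepest fall of the 8 tested genes at acute 24 h. It read 180, 214, 268 and 207 CPM in healthy libraries (217 ± 36.7, n = 4) and 10.4, 14.5 and 11.7 CPM at acute 24 h (12.2 ± 2.09, n = 3). This is a 17.8-fold lower level (log2 fold change −4.15, SE 0.300, adjusted p = 1.11e-09 by edgeR). By acute 72 h Gas1 read 119, 86.8, 214 and 237 CPM (164 ± 72.4, n = 4), where 2 of the 4 libraries were within the healthy range and 2 below it (−0.40, adjusted p = 0.228 by edgeR). The acute 7 d libraries read 309, 382, 341 and 336 CPM, all above healthy, yet the rise was under 2-fold (0.65, adjusted p = 0.0432 by edgeR).

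After repeated injury Gas1 was not low at 24 h. It read 405, 345, 339 and 382 CPM at chronic 24 h (368 ± 31.3, n = 4), above every healthy library (log2 fold change 0.76, adjusted p = 0.0153 by edgeR, under 2-fold). Chronic 72 h held the highest values, with 509, 438, 684 and 646 CPM (569 ± 115, n = 4), which did not overlap any other group. Gas1 rose there against healthy (1.39, SE 0.236, adjusted p = 0.000183 by edgeR) and against acute 72 h (1.79, SE 0.238, adjusted p = 1.98e-05). It also rose from acute 72 h to acute 7 d (1.06, adjusted p = 0.00411 by edgeR), a call that fell under 2-fold without acute 72 h replicate 1 (0.93) or replicate 2 (0.85). Chronic 14 d libraries read 338, 363, 395 and 250 CPM, overlapping the healthy range in replicate 4 (0.63, adjusted p = 0.0939 by edgeR). Between the 24 h groups Gas1 and Hhip went opposite ways: the Gas1 level was 30.1-fold higher at chronic 24 h than at acute 24 h and Hhip was 29.7-fold lower, as fitted values without a test. Of the Gas1 exon bases, 589 (19.9%) overlap the opposite-strand lincRNA Gm48488. Its mean was 5.17 CPM in healthy, 0.265 CPM at acute 24 h and 5.33 CPM at chronic 72 h. Because the strand of counting is not given in the sources used here, reads of this pair cannot be told apart there.

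Boc (ENSMUSG00000022687, chr16:44485049-44558897, minus strand), an immunoglobulin-type co-receptor, was the only one of the 9 genes that rose in all 6 injured groups. Healthy libraries read 5.89, 10.9, 14.1 and 6.33 CPM (9.30 ± 3.91, n = 4), and acute 24 h libraries read 33.4, 16.9 and 23.2 CPM (24.5 ± 8.31, n = 3). The chronic 24 h libraries were the highest at 92.6, 62.6, 65.9 and 71.3 CPM (73.1 ± 13.5, n = 4). None of the 23 injured libraries overlapped healthy. The log2 fold change against healthy was 2.97 (SE 0.279, adjusted p = 3.73e-08 by edgeR) at chronic 24 h. In the other 5 groups it ran from 1.40 (acute 24 h, adjusted p = 0.000485 by edgeR) to 2 (chronic 72 h, adjusted p = 1.38e-05).

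Boc stood at 23.4, 31.1, 41.0 and 46.9 CPM at acute 72 h and at 33.1, 37.3, 31.5 and 28.4 CPM at acute 7 d. Chronic 72 h libraries read 39.6, 39.0, 42.9 and 27.2 CPM and chronic 14 d libraries 26.7, 25.4, 35.1 and 22.3 CPM. These 4 groups overlapped each other. Boc fell from chronic 24 h to chronic 14 d (−1.41, SE 0.263, adjusted p = 0.000420 by edgeR), and chronic 72 h against acute 72 h gave 0.06 (95% interval −0.44 to 0.57).

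Cdon (ENSMUSG00000038119, chr9:35421128-35507652, plus strand), the relative of Boc, passed in 0 of 10 comparisons. Its mean was 7.53 ± 3.95 CPM in healthy, 3.84 ± 0.822 CPM at acute 24 h (n = 3) and 10.1 to 14.8 CPM in the other 5 groups (n = 4 each). Libraries of chronic 14 d alone spread from 5.40 to 27.7 CPM. The log2 fold change against healthy lay between −0.97 (95% interval −1.95 to 0.01) at acute 24 h and 0.98 (0.10 to 1.86) at chronic 14 d, so changes near 2-fold are within the intervals.

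Smo (ENSMUSG00000001761, chr6:29735503-29761365, plus strand), the signal transducer, differed from healthy by less than 2-fold in all 6 injured groups. Healthy libraries read 95.7, 118, 112 and 92.3 CPM (105 ± 12.6, n = 4), and acute 24 h libraries read 64.4, 60.4 and 65.1 CPM (63.3 ± 2.54, n = 3). The acute 24 h values lay below all others of the series (log2 fold change −0.72, adjusted p = 0.00167 by edgeR). At chronic 24 h the 4 libraries read 151 to 153 CPM, and means were 148 CPM at acute 72 h, 161 CPM at acute 7 d and 168 CPM at chronic 72 h. Those 4 groups had log2 fold changes of 0.50 to 0.69, each with an adjusted p below the threshold by edgeR (0.0203 to 0.00246). The means of these 4 groups were 2.34-fold to 2.66-fold that of acute 24 h with no overlap, contrasts that were not tested. At chronic 14 d the mean was 105 ± 17.8 CPM, equal to healthy on the printed scale (0.00, 95% interval −0.30 to 0.30).

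**Figure D3:**
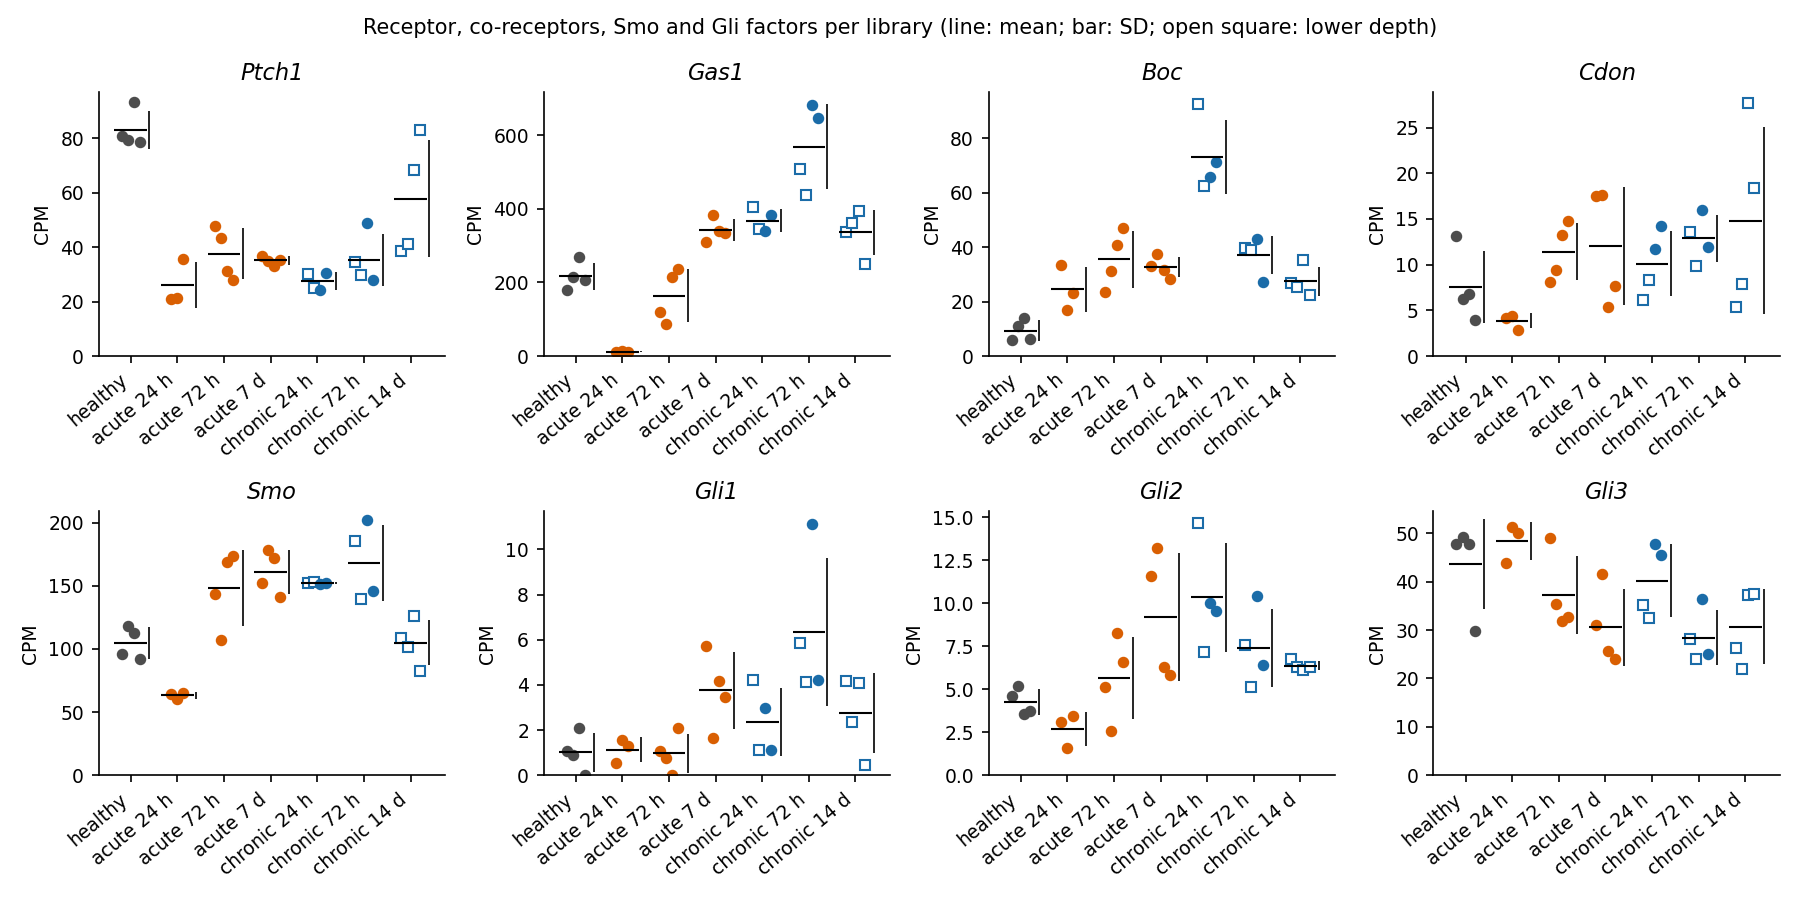
CPM (vertical, from 0) of the receptor Ptch1, the co-receptors Gas1, Boc and Cdon, the transducer Smo and the 3 Gli genes in each library, by group (horizontal), with group means as lines, SD as bars and lower-depth libraries as open squares. Gas1 is at 10.4 to 14.5 CPM in the acute 24 h libraries, Boc peaks at chronic 24 h (62.6 to 92.6 CPM), and Gli1 stays at or under 11.1 CPM in all 27 libraries.

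Among the Gli factors, Gli1 is a pure activator and a target of the pathway, Gli2 is the main activator downstream of Smo, and Gli3 acts largely as a repressor in the absence of ligand. Gli1 (ENSMUSG00000025407, chr10:127329882-127341974, minus strand) was scarce, with 0 to 143 counts per library. It read 1.09, 0.878, 2.11 and 0 CPM in healthy libraries and 5.87, 4.14, 11.1 and 4.23 CPM at chronic 72 h, which did not overlap. Gli1 rose at chronic 72 h against healthy (log2 fold change 2.63, SE 0.833, adjusted p = 0.0280 by edgeR) and against acute 72 h (2.67, adjusted p = 0.0316), where the libraries read 1.06, 0.779, 0 and 2.09 CPM. Both calls were near the threshold. The rise against healthy was lost without chronic 72 h replicate 3 (2.24, adjusted p = 0.0796 by edgeR), without healthy replicate 1 (adjusted p = 0.0564) or 2 (adjusted p = 0.0704), in the higher-depth libraries alone (2.94, adjusted p = 0.0588) and in a fit of the compared groups alone (adjusted p = 0.0567). The rise against acute 72 h was lost without acute 72 h replicate 1, 2 or 3 or chronic 72 h replicate 1 or 3 (log2 fold change 2.31 to 2.71, adjusted p = 0.0512 to 0.0874 by edgeR) and with depth class as a term (adjusted p = 0.0549).

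In the other injured groups Gli1 did not pass. The acute 7 d libraries read 5.74, 1.64, 4.19 and 3.45 CPM (log2 fold change 1.87, 95% interval 0.26 to 3.47, adjusted p = 0.104 by edgeR). Acute 24 h, chronic 24 h and chronic 14 d had means of 1.14 ± 0.537 (n = 3), 2.35 ± 1.52 and 2.77 ± 1.76 CPM (n = 4 each), and at least 1 library of each overlapped healthy. Levels of an overlapping gene and of another cell type list were also higher at chronic 72 h than in healthy. Both were also above healthy at acute 7 d and at acute 72 h. Gli1 had means of 3.75 CPM at acute 7 d, 0.983 CPM at acute 72 h (0 to 27 counts) and 1.02 CPM in healthy. Arhgap9, a gene on the opposite strand that shares 62 of its exon bases, had means of 1.15 CPM in healthy, 2.94 at acute 72 h, 14.1 at acute 7 d and 6.67 at chronic 72 h. The summed level of 11 mesothelial and portal fibroblast markers ran from 135 to 213 CPM in healthy, from 228 to 558 at acute 72 h, from 566 to 640 at acute 7 d and from 422 to 678 at chronic 72 h. In that list the mesothelial marker Msln had a mean of at most 0.789 CPM in any group and was at 0 at acute 24 h and acute 72 h, and the fibroblast marker Thy1 had means of 0.851 to 6.18 CPM. The highest single-library levels in the list were those of Eln (400 CPM), Fbln2 (323 CPM), Cd34 (170 CPM) and Wt1 (130 CPM). The same sum was 62.2 to 109 CPM at acute 24 h and 480 to 660 at chronic 24 h, the groups with the lowest Gas1 and the highest Boc. The mean of this sum was 172 CPM in healthy, 84.8 at acute 24 h, 612 at acute 7 d and 581 at chronic 24 h. Boc had means of 9.30, 24.5, 32.6 and 73.1 CPM in the same groups. The part of Arhgap9 or of this list in these results was not tested.

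Gli2 (ENSMUSG00000048402, chr1:118834132-119053619, minus strand) rose in 2 groups. It read 4.62, 5.17, 3.54 and 3.73 CPM in healthy (4.26 ± 0.766, n = 4), 14.7, 7.14, 10.0 and 9.52 CPM at chronic 24 h (10.3 ± 3.16) and 11.6, 13.2, 6.28 and 5.82 CPM at acute 7 d (9.22 ± 3.72). Neither injured group overlapped healthy, with log2 fold changes of 1.27 (SE 0.334, adjusted p = 0.00518 by edgeR) and 1.11 (SE 0.332, adjusted p = 0.0171). The acute 7 d call was lost without healthy replicate 3 (1.03, adjusted p = 0.0525 by edgeR) or acute 7 d replicate 2 (0.89, adjusted p = 0.0718). At chronic 72 h and chronic 14 d the means of 7.40 ± 2.25 and 6.38 ± 0.263 CPM were 1.74-fold and 1.5-fold above healthy and did not pass. At acute 24 h the 3 libraries read 1.56 to 3.42 CPM, all below healthy, with a log2 fold change of −0.66 (95% interval −1.38 to 0.07).

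Gli3 (ENSMUSG00000021318, chr13:15463235-15730026, plus strand), by contrast, passed in 0 of 10 comparisons. Its healthy libraries read 47.9, 49.2, 47.9 and 29.7 CPM, with replicate 4 apart from the rest, and the group means ran from 28.4 ± 5.66 CPM at chronic 72 h to 48.4 ± 3.95 CPM at acute 24 h. The log2 fold change nearest to a call was −0.62 at chronic 72 h (SE 0.215, adjusted p = 0.0450 by edgeR), which is under 2-fold. Per kilobase of exon, Gli3 made up 84.7 ± 0.384% of the summed Gli level in healthy libraries and 56.9 ± 4.79% at chronic 72 h (n = 4 each). Over the same groups the share of Gli1 went from 3.43 ± 2.93% to 22.9 ± 4.60%, and that of Gli2 from 11.9 ± 2.56% to 20.2 ± 1.37%. At acute 24 h the Gli3 share was 89.1 ± 1.80% (n = 3), and all 3 libraries (87.2 to 90.8%) lay above the healthy ones (84.2 to 85.1%). At acute 7 d the shares were 60.4 ± 5.20% for Gli3, 24.7 ± 4.46% for Gli2 and 15.0 ± 6.72% for Gli1. As these shares use the values above, they were not tested again.

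**Figure D4:**
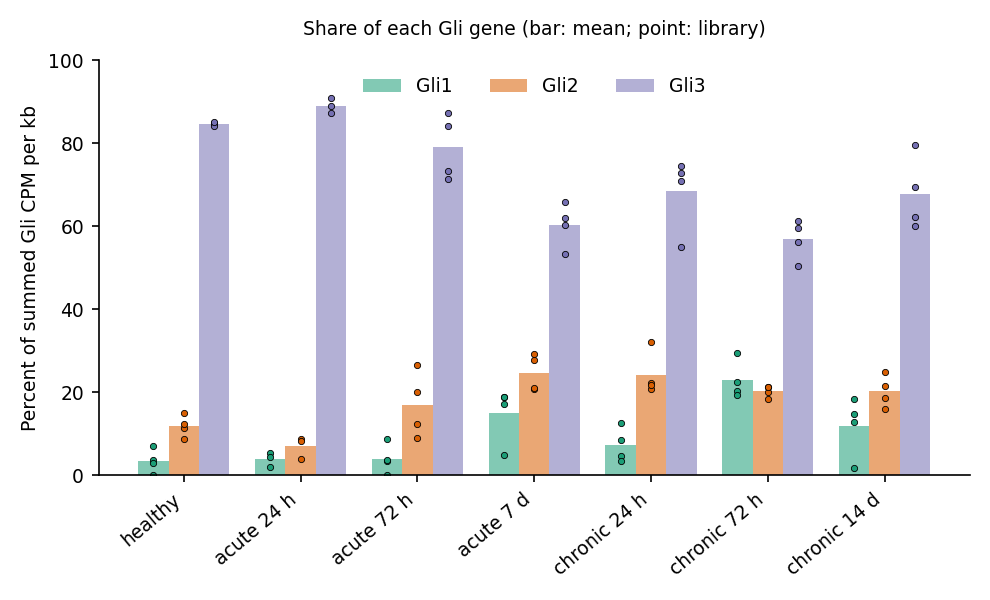
Share of Gli1, Gli2 and Gli3 in their summed level per kilobase of exon (percent, vertical) in each group (horizontal), with bars for group means and points for libraries. Gli3 takes the most in each group, from 89.1% at acute 24 h to 56.9% at chronic 72 h, where Gli1 reaches 22.9%.

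On the per-length scale, the healthy group means ordered the 9 genes from Gas1 (73.4 CPM per kb) through Smo (18.6), Hhip (13.9), Ptch1 (5.86), Gli3 (4.55), Boc (2.09), Cdon (0.976) and Gli2 (0.621) to Gli1 (0.204). The order changed with injury. At acute 24 h Hhip was highest at 35.4 CPM per kb, above Smo (11.3), Boc (5.50), Gli3 (5.05) and Gas1 (4.12). At chronic 24 h Gas1 stood at 124, Boc at 16.4 and Hhip at 1.21 CPM per kb.

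Beyond the 9 genes, 49 other genes of the pathway were listed, of which 45 passed the filter on low counts and Shh, Lrp2, Foxf2 and Grem1 did not. Against healthy, 7 of 45 were called at acute 24 h (2 rose, 5 fell), which is 15.6% against 22% of all genes called in either direction. The count was 7 at acute 72 h (2 rose, 5 fell, 15.6% against 12.6%), 12 at acute 7 d (4 and 8, 26.7% against 14.9%) and 11 at chronic 24 h (3 and 8, 24.4% against 19.3%). It was 8 at chronic 72 h (4 and 4, 17.8% against 12.1%) and 6 at chronic 14 d (3 and 3, 13.3% against 5.72%). Between injured groups, 3 were called from acute 72 h to acute 7 d (6.67% against 7.8%), 3 from chronic 24 h to chronic 14 d (6.67% against 12.8%), 4 from chronic 72 h to chronic 14 d (8.89% against 0.901%) and 5 at chronic 72 h against acute 72 h (11.1% against 9.12%). Their median log2 fold change against healthy lay between −0.29, at acute 24 h, and 0.07, at acute 7 d, and between injured groups from −0.08 (chronic 72 h to chronic 14 d) to 0.13 (acute 72 h to acute 7 d). The 11 negative regulators and kinases between Smo and Gli, among them Sufu, Kif7 and Gsk3b, passed in 0 of 10 comparisons. So did the 8 genes of the primary cilium, among them Kif3a and Ift88. At an unadjusted p below 0.05 by edgeR, 0 to 5 of the former and 0 to 2 of the latter were found per comparison, and DESeq2 called 0 of either. At an adjusted p below 0.05 by edgeR the numbers were 0 to 3 and 0 to 2, all with changes under 2-fold.

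Of the ligands, Desert hedgehog (Dhh) had the most transcripts and fell in all 6 injured groups. Healthy libraries read 41.3, 31.0, 36.7 and 38.4 CPM (36.9 ± 4.35, n = 4). Dhh read 4.05, 3.57, 3.24 and 3.36 CPM at chronic 24 h and 4.40, 4.86, 3.11 and 1.72 CPM at chronic 72 h, with log2 fold changes of −3.38 (adjusted p = 7.19e-08 by edgeR) and −3.41 (adjusted p = 2.27e-07). The means of 12.5, 9.09, 9.13 and 9.11 CPM at acute 24 h, acute 72 h, acute 7 d and chronic 14 d gave log2 fold changes of −1.56 to −2.02. No injured library overlapped healthy. Dhh was thus low at acute 24 h, when Hhip was high. It was lower at chronic 72 h than at acute 72 h (−1.39, adjusted p = 0.00424 by edgeR) and rose from chronic 24 h to chronic 14 d (1.36, adjusted p = 0.00333).

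The other ligands were near or at the limit of counting. Shh had 0 counts in all 27 libraries. Ihh had 0 to 30 counts per library. It was at 0 in the 4 chronic 24 h libraries, where it was called lower than healthy (4, 13, 9 and 0 counts, adjusted p = 0.0332 by edgeR), and no fold is given.

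Scube1, a secreted relative of the factors that release lipid-modified ligands, rose in all 6 groups. It went from 9.88, 9.95, 19.9 and 7.11 CPM in healthy (11.7 ± 5.61) to 374, 326, 494 and 329 CPM at chronic 72 h (381 ± 78.7, n = 4 each), a log2 fold change of 5.02 (adjusted p = 7.25e-09 by edgeR). The other means were 28.1, 53.6, 147, 159 and 86.6 CPM at acute 24 h, acute 72 h, acute 7 d, chronic 24 h and chronic 14 d. Gpc3, a glypican that competes with Ptch1 for ligand, also peaked at chronic 72 h, with 59.6, 46.6, 118 and 96.4 CPM against 10.0 to 12.3 CPM in healthy (2.81, adjusted p = 1.71e-06 by edgeR). Evc, a ciliary partner of Smo, fell at acute 24 h from 85.4 ± 12.3 to 12.9 ± 3.37 CPM (−2.73, adjusted p = 7.54e-09 by edgeR) and at chronic 24 h to 31.9 ± 7.98 CPM (−1.42).

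Of the 12 listed genes known to respond to hedgehog among other signals, 10 were tested, and they did not move one way. Bcl2, an inhibitor of cell death, fell in all 6 groups from 244 ± 62.5 CPM to means of 56.9 to 77.1 CPM, and Bmp4, a secreted growth factor, fell in 5 of 6 from 197 ± 17.0 CPM to 41.0 ± 8.82 CPM at chronic 24 h (log2 fold change −2.26, adjusted p = 2.07e-09 by edgeR). Ccnd2, which encodes cyclin D2, fell in 4 groups, most at acute 7 d (−2.09, adjusted p = 1.32e-05 by edgeR). Foxl1, a forkhead factor, rose in all 6 groups from 3, 1, 0 and 5 counts in the healthy libraries to 54 to 104 counts in the libraries of acute 24 h and 62 to 180 in those of chronic 72 h. Sfrp1, a secreted Wnt modulator, fell at acute 24 h from 37.4 ± 24.0 to 5.82 ± 2.50 CPM (−2.68, adjusted p = 8.66e-05 by edgeR) and rose at chronic 72 h to 108 ± 25.6 CPM (1.54, adjusted p = 0.00620). Ccnd1, the cyclin D1 gene, fell at acute 7 d from 26.4 ± 6.28 to 9.57 ± 4.52 CPM, and Foxf1, a forkhead factor of mesenchymal cells, fell at chronic 24 h from 936 ± 61.9 to 387 ± 26.5 CPM. Further calls were falls of Ulk3 at acute 72 h and acute 7 d and of Mycn at acute 7 d and chronic 24 h, and a rise of Scube2 at acute 7 d (11 to 17 counts against 0 in all healthy libraries, adjusted p = 0.0309 by edgeR).

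**Figure D5:**
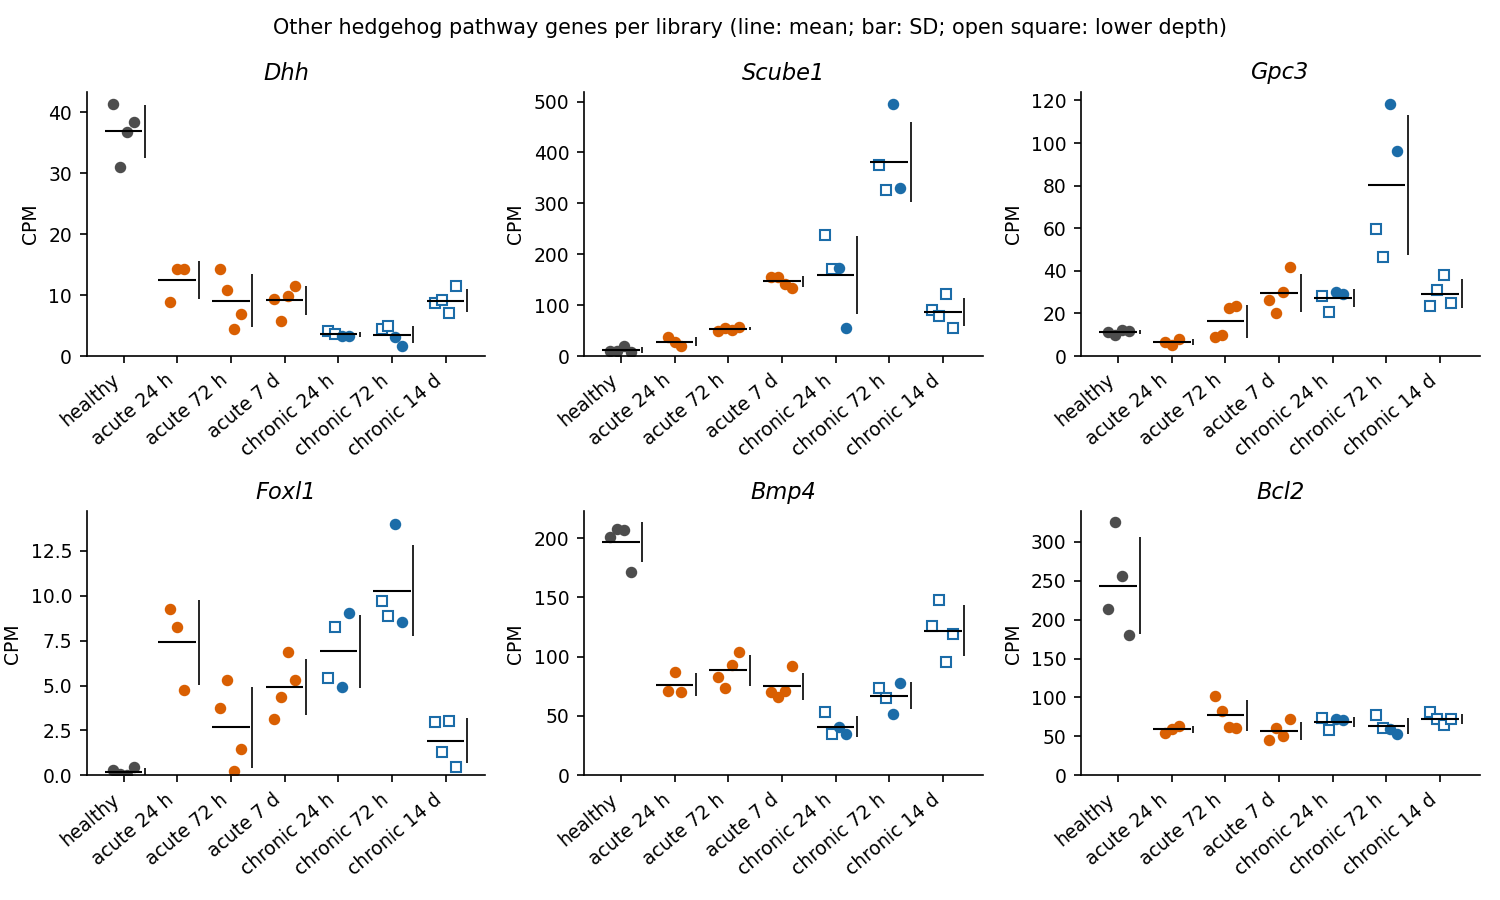
CPM (vertical, from 0) of 6 other pathway genes in each library, by group (horizontal), with group means as lines, SD as bars and lower-depth libraries as open squares. Dhh, Bmp4 and Bcl2 are highest in healthy libraries, whereas Scube1, Gpc3 and Foxl1 have their highest means at chronic 72 h.

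Genes whose pattern over the 7 groups was nearest to that of Hhip were sought among 13922 genes by the root mean square (RMS) difference of centred mean log2 CPM. The 5 nearest were Ttyh1, an anion channel gene (RMS 0.585 log2 units), Gm26870 (0.787), Nt5e, which encodes the ectonucleotidase CD73 (0.791), Gm10801 (0.805) and Egfem1 (0.819). Nt5e was the only one of these whose acute 24 h libraries all lay above healthy, at 496 to 689 CPM against 278 to 495 CPM, with means of 122 CPM at acute 72 h and 105 CPM at chronic 24 h. Ttyh1 had means of 38.3 CPM in healthy, 51.6 CPM at acute 24 h and 1.60 CPM at chronic 24 h. Egfem1 differed from Hhip at acute 24 h, with a mean of 69.2 CPM against 136 CPM in healthy. Gm26870 (25.6 against 33.2 CPM) and Gm10801 (98.5 against 122 CPM) also had lower means at acute 24 h than in healthy, with overlapping libraries. Gm26870 and Gm10801 are predicted genes whose healthy libraries spread from 8.15 to 73.3 and from 33.5 to 276 CPM, and such loci can share reads with near-identical copies. With genes of mean log2 CPM under 3 left out, 3 of the 5 were found again. Of the other 8 hedgehog genes, Gli3 ranked 1812 (RMS 1.58) and Ptch1 4903 (RMS 1.71) in nearness to Hhip. The measure places genes of little change before those that move the other way, so these ranks are no sign of a shared pattern. Smo was next at 12011, and Gli1 was under the level needed for ranking.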

How the data were processed

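RNA of sorted mouse HSCs was sequenced by the authors as 75-base single reads on a NextSeq 500, checked with FastQC and aligned with STAR to GRCm38.p6, and StringTie was used for quantification, per the submitters' notes and the study's methods. Tool versions, the annotation release, the strand setting and the step from StringTie to counts are not given in the sources used here. The deposited table holds raw counts per gene, not normalized, for 53379 Ensembl genes in 27 libraries, and all columns were matched to samples by their labels. Of the gene IDs, 53274 matched GENCODE M21 and 105, with 0.0182% of counts, did not. Groups were taken from the labels.

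CPM were computed from the counts with library sizes scaled by TMM (trimmed mean of M values). Genes were filtered with filterByExpr (18758 kept), and 1 quasi-likelihood model over all 7 groups was fitted with edgeR 4.0.16 (R 4.3.3, limma 3.58.1). Deviations of libraries with the same replicate number were little correlated between groups, so no block was used in the main fit. A call needed a fold above 2 and an adjusted p (Benjamini-Hochberg) under 0.05. Intervals are 95% intervals by a normal approximation, with the SE calculated back from the log2 fold change and the F statistic. They leave out the degrees of freedom of the test, so they are somewhat too narrow. They are not adjusted for the number of genes. Alternatives were DESeq2 1.42.0 and its size factors, library size alone, other filters, no fold minimum, the compared groups alone, a replicate block, depth class as a term or depth classes alone, and each library left out. On simulated counts in which 200 genes were given a log2 change of 2, the fit found 133 (with 3 false calls) for chronic 72 h against healthy over 18258 genes and 130 (1 false) for chronic 72 h against acute 72 h over 18284. Named pathway genes are those called at least in 1 comparison, except for an item that is counted but not reported here. The members, the lists and the rule for named genes were chosen with earlier results of these data known, and the 6-base promoter core was chosen after the exact motif had been searched. P-values measure the spread between these libraries. Promoters are those of RefSeq for GRCm38.p6.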

Additional observations from a re-analysis of the deposited data

Results flagged for a closer look

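A library far from the other 3 of its group was found in 5 of 147 gene and group sets of 4 libraries, where chance flags about 1 in 20 (7.3 of 147). Hhip was at 22.8 CPM in chronic 24 h replicate 1, against 6.23 to 7.69 CPM in the others, so the chronic 24 h mean of Hhip rests partly on that library. Ptch1 was at 93.3 CPM in healthy replicate 3 (others 78.9 to 81.0 CPM), and Gli3 was at 29.7 CPM in healthy replicate 4 (others 47.9 to 49.2 CPM). Bcl2 was at 58.2 CPM in chronic 24 h replicate 2 (others 70.5 to 73.0 CPM), and Scube2 was at 1.04 CPM in chronic 24 h replicate 4 and at 0 in the other 3.

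Differences between injured groups that passed the edgeR test numbered 20. From acute 72 h to acute 7 d, 1 of 9 genes and 6.67% of the 45 others were called (all genes: 7.8%). From chronic 24 h to chronic 14 d it was 2 of 8 and 6.67% (12.8%), and from chronic 72 h to chronic 14 d 0 of 9 and 8.89% (0.901%). At chronic 72 h against acute 72 h it was 2 of 9 and 11.1% (9.12%). At chronic 72 h against acute 72 h, the same interval after the last of 8 injections and after the only injection, the log2 fold change was 1.79 for Gas1, 2.67 for Gli1, 2.83 for Scube1, 2.31 for Gpc3, 1.94 for Foxl1, 1.94 for Sfrp1 and −1.39 for Dhh. From acute 72 h to acute 7 d it was 1.06 for Gas1, 1.45 for Scube1, 1.17 for Sfrp1 and −1.89 for Ccnd1. From chronic 24 h to chronic 14 d it was 1.07 for Ptch1, −1.41 for Boc, 1.36 for Dhh, −1.82 for Foxl1 and 1.58 for Bmp4. From chronic 72 h to chronic 14 d it was 1.39 for Dhh, −2.14 for Scube1, −1.45 for Gpc3 and −2.40 for Foxl1. These last 4 calls became 1 to 3 with any 1 library of those 2 groups left out, 1 with depth class as a term, 1 in a fit of the compared groups alone and 0 in the lower-depth libraries. The 2 chronic comparisons with chronic 14 d set libraries of mixed depth against libraries that are all of lower depth, and the part of depth was not tested beyond the alternatives given.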

How the results depend on the processing

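Calls of Boc against healthy, of Ptch1 against healthy, of Gas1 at acute 24 h and chronic 72 h and of Hhip at acute 72 h, acute 7 d and chronic 72 h were kept under every alternative run. Calls were lost with 1 library left out for Gli1 at chronic 72 h, Gli2 at acute 7 d, Hhip at chronic 14 d, Gas1 for acute 7 d against acute 72 h and Ptch1 for chronic 14 d against chronic 24 h. Depth limits Gli1, which has few counts, and chronic 14 d, whose libraries are all of lower depth, so no comparison of them with healthy inside a depth class was run. The cause of the changes below was not tested.

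For the 9 genes, chronic 14 d against chronic 72 h gave 1 call in place of 0 with DESeq2 (Hhip) and 1 without a fold minimum (Smo). Chronic 24 h against healthy gave 5 in place of 3 without a fold minimum (Gas1 and Smo added), chronic 72 h against acute 72 h gave 1 in place of 2 in the higher-depth libraries, and chronic 14 d against chronic 24 h gave 1 in place of 2 in the lower-depth libraries. Replicate numbers showed little pairing of the libraries over all groups. Of 78 same-number pairs between groups, 9 had deviations correlated above 0.1 (median 0.00886), against 20 of 234 other pairs (median −0.00211). At chronic 24 h and chronic 72 h the depth class did follow the replicate number, with 1 and 2 of lower depth. With a replicate block, chronic 72 h against acute 72 h gave 1 call (Gli1 lost, log2 fold change 2.38, adjusted p = 0.0629 by edgeR), and the block changed no other call of the 9 genes.

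For the other pathway genes, a fit without a fold minimum gave 17 calls in place of 7 at acute 24 h, 11 in place of 7 at acute 72 h, 19 in place of 12 at acute 7 d, 18 in place of 11 at chronic 24 h, 13 in place of 8 at chronic 72 h, 12 in place of 6 at chronic 14 d and 9 in place of 3 for chronic 14 d against chronic 24 h. Chronic 14 d against chronic 72 h, with 4 calls, gave 1 in a fit of the compared groups alone, 1 with depth class as a term and 0 in the lower-depth libraries, and chronic 72 h against acute 72 h, with 5, gave 3 with the compared groups alone. Of the 5 genes nearest to Hhip, 5 were found again with a prior count of 0.5 and 3 among genes whose mean log2 CPM was 3 or more.

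Leaving out each library gave, for the 9 genes, 3 to 3 calls at acute 24 h, 3 to 3 at acute 72 h, 3 to 4 at acute 7 d, 3 to 3 at chronic 24 h, 4 to 5 at chronic 72 h and 1 to 2 at chronic 14 d, and 0 to 1 for acute 7 d against acute 72 h, 1 to 2 for chronic 14 d against chronic 24 h, 0 to 0 for chronic 14 d against chronic 72 h and 1 to 2 for chronic 72 h against acute 72 h. For the other pathway genes the same order gave 6 to 10, 7 to 8, 10 to 12, 9 to 12, 8 to 9 and 6 to 7, and then 2 to 5, 2 to 5, 1 to 3 and 4 to 6.

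Directions turned only for log2 fold changes near 0 that were not called. With library size alone, Gli1 at acute 72 h became 0.0559 and Gas1 for chronic 14 d against chronic 24 h became 0.0415. Smo at chronic 14 d became −0.00185 with a mean of at least 1 CPM and −0.0071 with the replicate block, which also gave 0.335 for Gli1 at acute 72 h. Depth class as a term gave 0.0402 for Gli3 at chronic 24 h and −0.0254 for Boc at chronic 72 h against acute 72 h, the higher-depth libraries gave 0.108 for the former and 0.0704 for Ptch1 in the latter comparison, and the lower-depth libraries gave 0.0205 for Gli2 for chronic 14 d against chronic 72 h.

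With a library left out, the range crossed 0 for Gli1 at acute 24 h (−0.26 to 0.80), at acute 72 h (−0.73 to 0.59) and for chronic 14 d against chronic 24 h (−0.00598 to 0.668), and for Smo at chronic 14 d (−0.054 to 0.147). For acute 7 d against acute 72 h it did so for Smo (−0.00853 to 0.223), Ptch1 (−0.203 to 0.0369), Cdon (−0.16 to 0.32) and Boc (−0.284 to 0.0525). For chronic 72 h against acute 72 h the ranges were −0.245 to 0.0439 for Ptch1, −0.0945 to 0.258 for Boc and −0.526 to 0.0791 for Hhip. The others were Cdon (−0.28 to 0.48) and Gli2 (−0.331 to 0.00248) for chronic 14 d against chronic 72 h and Gas1 (−0.167 to 0.0412) for chronic 14 d against chronic 24 h.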
